A study of Mus musculus with 6 samples.

Results

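Element-gene connections that were stronger than distance alone predicts are described here in cultured mouse oligodendrocyte precursor cells (OPCs), without treatment (Ctr-OPCs) and after interferon-gamma (IFN-γ-OPCs). A connection was a pair of a candidate regulatory element and a target gene with an activity-by-contact (ABC) score of at least 0.05 and at most 1 Mb between element and transcription start site (TSS). It was taken as a distance-exceeding connection when its power-law score, which puts the contact expected from distance in place of the measured contact, was below 0.025. The Ctr-OPC table held 600 such connections among 11378 connections and 66637 listed pairs, and the IFN-γ-OPC table held 745 among 12141 connections and 71478 listed pairs, which makes 1345 of 23519 connections. They made up 5.27% of the connections in Ctr-OPCs (95% Wilson interval 4.88 to 5.70) against 6.14% in IFN-γ-OPCs (5.72 to 6.58). Because these scores chose the pairs, their scores, contact, activity and distance are given as a description, without a test.

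The cells were primary OPCs from C57BL/6j mice of genotype Sox10-Cre/RCE, in which Sox10-driven Cre switches on a green fluorescent reporter throughout the oligodendrocyte lineage. Per the methods, the reporter line was kept on a mixed C57BL/6xCD1 background. Brains of pups at postnatal day 4 to 6 were pooled, with different litters for different replicates, and OPCs were isolated by sorting for the reporter or with CD140a beads and then cultured. Both groups grew in the same proliferation medium, and the treated group additionally received 100 ng/mL IFN-γ, starting 24 hours after passaging per the labels and lasting 48 h per the methods. H3K27ac HiChIP, which sequences DNA contacts at chromatin carrying an active histone mark, was performed on 3 libraries per condition, but each deposited table pools 3 libraries. No spread between replicates could therefore be computed, the read depth behind a contact value is unknown here, and condition cannot be told apart from differences between the pools. Intervals cover counting error only, and pairs that share an element, a gene or a 5 kb bin are not independent. In bulk cultures, contact in fewer cells cannot be told apart from weaker contact in each cell. Of the 20 OPC lineage genes, 20 were listed as targets in both tables, with a median promoter activity quantile of 0.898 and 0.875, against 0.688 and 0.686 over all listed genes. The tables listed 4 of 8 microglia markers in Ctr-OPCs (median quantile 0.646) against 6 of 8 in IFN-γ-OPCs (0.654), 4 of 6 astrocyte markers in each (0.696 and 0.631) and 6 of 6 neuron markers in each (0.710 and 0.723). The part of other cells in the results was not tested.

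Enhancers act on promoters by coming close to them in the folded chromosome. Loci of 1 chromosome meet less and less often as the distance between them grows, and this decay follows a power law over a wide range. Loops anchored by CTCF and cohesin, and clustering of active chromatin, bring some distant loci together more often than the decay predicts. The ABC model multiplies the activity of an element, taken from chromatin accessibility and H3K27ac, by its contact with a promoter, and divides by the sum over all elements near that gene. GAS elements and the sites of interferon regulatory factors (IRFs) are short DNA motifs of the response to IFN-γ.

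The DNA of 6 elements is shown for the pairs to which the values below return: 3 elements chosen in both conditions, the Olig2 and Ermn elements of the oligodendrocyte lineage lists, and the Manea element, which led the protein-coding targets of IFN-γ-OPCs by the ratio of scores. Each stretch covers 240 bases of the plus strand of mm10 (sequence from RefSeq, GRCm38.p6), about the centre of the element, or of the part that both tables list. Capitals mark letters of 4 motifs searched on both strands: GAS (TTCNNNGAA), AP-1 (TGANTCA), an IRF pair (GAAA, any pair of bases, GAAA) and a CTCF core (CCA, any pair of bases, AG, any pair of bases, GGC).
Gdnf element, intergenic (chr15:7460237-7460476): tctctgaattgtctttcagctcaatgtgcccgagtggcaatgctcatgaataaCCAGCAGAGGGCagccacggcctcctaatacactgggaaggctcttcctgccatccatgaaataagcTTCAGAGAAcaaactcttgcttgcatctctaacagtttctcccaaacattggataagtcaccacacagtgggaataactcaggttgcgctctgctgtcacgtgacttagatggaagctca
Rtl9 element, intergenic (chrX:143443254-143443493): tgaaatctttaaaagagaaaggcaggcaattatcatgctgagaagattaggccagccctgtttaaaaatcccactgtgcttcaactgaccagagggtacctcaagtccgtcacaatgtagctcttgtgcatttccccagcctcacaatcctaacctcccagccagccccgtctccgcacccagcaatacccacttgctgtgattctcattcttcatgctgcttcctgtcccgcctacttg
Mir9-2 element, intergenic (chr13:84348111-84348350): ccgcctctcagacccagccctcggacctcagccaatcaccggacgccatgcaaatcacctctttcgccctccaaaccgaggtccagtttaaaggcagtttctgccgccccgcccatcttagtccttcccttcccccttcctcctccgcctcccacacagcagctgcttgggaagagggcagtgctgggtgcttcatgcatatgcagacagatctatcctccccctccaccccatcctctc
Olig2 element, intron of Gm15966 (chr16:91305676-91305915): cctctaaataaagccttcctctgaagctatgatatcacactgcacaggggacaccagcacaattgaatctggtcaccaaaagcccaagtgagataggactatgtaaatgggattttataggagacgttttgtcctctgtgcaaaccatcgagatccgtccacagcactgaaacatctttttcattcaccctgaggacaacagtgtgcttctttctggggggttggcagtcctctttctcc
Ermn element, intron of Acvr1 (chr2:58484492-58484731): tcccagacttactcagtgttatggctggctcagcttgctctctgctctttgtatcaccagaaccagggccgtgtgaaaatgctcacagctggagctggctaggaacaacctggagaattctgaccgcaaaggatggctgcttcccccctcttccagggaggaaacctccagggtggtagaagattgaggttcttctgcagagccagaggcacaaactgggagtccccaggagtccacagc
Manea element, intergenic (chr4:25593266-25593505): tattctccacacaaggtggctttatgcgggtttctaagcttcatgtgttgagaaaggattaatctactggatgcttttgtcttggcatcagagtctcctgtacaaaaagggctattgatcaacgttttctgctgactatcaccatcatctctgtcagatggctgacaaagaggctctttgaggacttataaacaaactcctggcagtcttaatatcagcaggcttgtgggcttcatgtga
Only the Gdnf stretch held any of these letters, with 1 CTCF core and 1 GAS match. A match is a description of letters, not a measured binding site.

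Distance-exceeding connections were long. Their median distance was 320.5 kb in Ctr-OPCs (interquartile range 176.3 to 532.0 kb, n = 600) against 252.7 kb in IFN-γ-OPCs (134.7 to 495.4 kb, n = 745). The other connections had medians of 5.41 kb and 5.47 kb. Of the distance-exceeding connections, 89.2% and 87.0% spanned more than 100 kb, and only 2 and 7 spanned under 20 kb. Their share of all connections rose with each distance band, from 0.0224% and 0.0731% below 20 kb to 31.6% and 44.6% at 100 to 200 kb and 72.5% and 80.7% at 500 to 1000 kb. Most connections beyond 200 kb therefore had a power-law score under the limit.

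The measured contact was low in absolute terms and high for the distance. The median contact, in the units of the ABC model, was 0.00875 in Ctr-OPCs (interquartile range 0.00547 to 0.0140) against 0.0102 in IFN-γ-OPCs (0.00665 to 0.0158). In the other, mostly nearby connections it was 0.0361 and 0.0383. Relative to the power-law contact at the same distance it was 2.20 times as high in Ctr-OPCs and 2.21 times in IFN-γ-OPCs, while the other connections had medians of 0.399 and 0.419, and 0.859 and 0.986 when they also spanned over 100 kb. The measured contact lay above the power-law contact in 95.5% and 96.9% of the distance-exceeding connections. Among those of Ctr-OPCs, 1 had a contact of 0 before the pseudocount and so owed its score to the pseudocount and the other terms. The ratio of the ABC score to the power-law score had a median of 3.98 and 4.04. Part of that ratio came from the gene: the sum over all elements of the target gene was 1.54 and 1.56 times as high with power-law contact as with measured contact (medians), and 1.68 and 1.65 times for the targets of other connections.

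**Figure D1:**
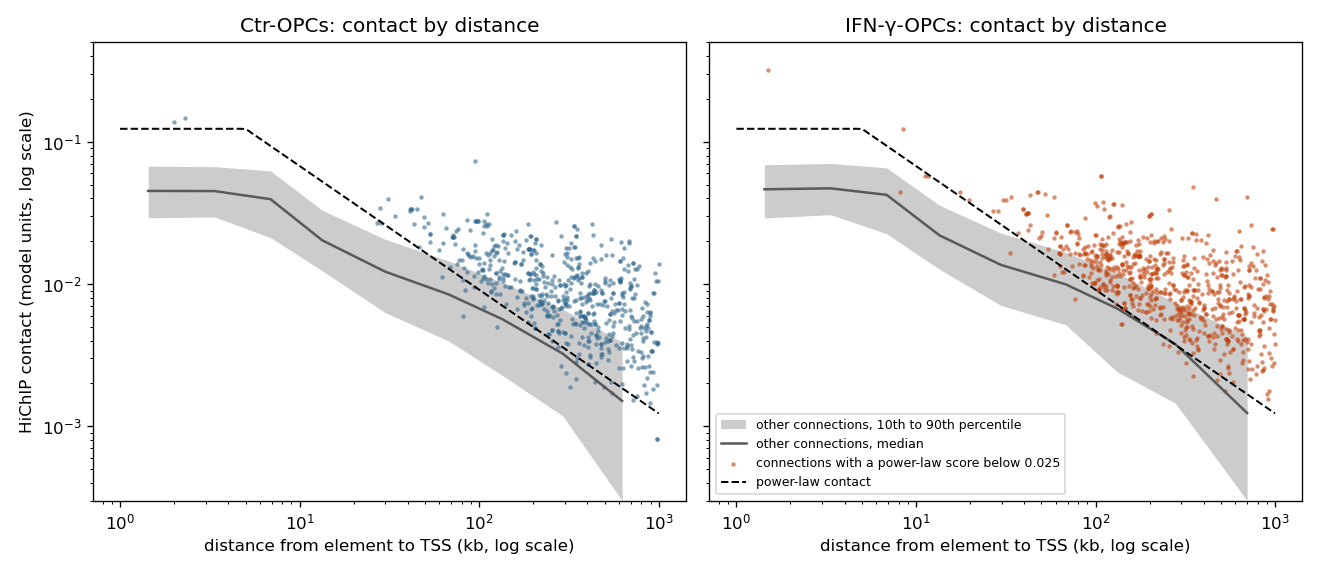
HiChIP contact in model units (log scale) against the distance from element to TSS in kb (log scale) for the distance-exceeding connections (points), with the median and the 10th to 90th percentile of the other connections (grey) and the contact of the power law (dashed). The points lie mostly above the dashed line and beyond 100 kb; 1 Ctr-OPC pair with a contact of 0 is not drawn.

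The scores lay close to the minimum. The median ABC score was 0.0586 in Ctr-OPCs against 0.0592 in IFN-γ-OPCs, and the highest were 0.272 and 0.179. Other connections had medians of 0.0698 and 0.0694. With the minimum at 0.06 the numbers fell to 260 and 346, and at 0.1 to 16 and 23. Around the power-law limit, the 27 Ctr-OPC connections just inside (0.024 to 0.025) had a median distance of 195 kb and a contact 1.42 times the power-law contact, and the 33 just outside (0.025 to 0.026) had 189 kb and 1.34 times. In IFN-γ-OPCs the 41 just inside had 139 kb and 1.40 times, and the 25 just outside had 105 kb and 1.39 times. Pairs on either side of this limit thus differed little in contact.

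Few distance-exceeding connections were a connection in both conditions. Of the 600 in Ctr-OPCs, 69 (11.5%, 95% Wilson interval 9.19 to 14.3) were also a connection in IFN-γ-OPCs, where an overlapping element had the same target gene. Of the 745 in IFN-γ-OPCs, 76 (10.2%, 8.23 to 12.6) were also a connection in Ctr-OPCs. Over all connections the corresponding shares were 50.4% for Ctr-OPCs and 47.1% for IFN-γ-OPCs. The other connections recurred in 52.6% and 49.5%. Restricted to pairs over 100 kb, the shares were 9.72% (7.49 to 12.5) against 26.2% (22.6 to 30.1) of the other connections in Ctr-OPCs, and 9.41% (7.40 to 11.9) against 27.8% (23.8 to 32.2) in IFN-γ-OPCs. The counting intervals did not overlap in either condition, but no replicate tables were at hand to measure how often a pair would recur within 1 condition. The distance-exceeding connections were chosen for a high ABC score beside a low power-law score in 1 table. That choice favours pairs with a high measured contact there, and its part in the lower recurrence was not tested.

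Recurrence was lower than in the other connections in every distance band from 100 kb upwards and, over 100 kb, in every class of ABC score examined. At 100 to 200 kb, 10.2% of the distance-exceeding and 29.4% of the other connections of Ctr-OPCs recurred, at 200 to 500 kb 11.2% and 23.2%, and at 500 to 1000 kb 7.23% and 22.2%. In IFN-γ-OPCs the same bands gave 8.29% and 27.1%, 12.7% and 28.6%, and 5.98% and 29.5%. At 50 to 100 kb the intervals overlapped for Ctr-OPCs (25% and 30.8%) but not for IFN-γ-OPCs (14.5% and 31.6%), and at 20 to 50 kb they overlapped for both. Among pairs over 100 kb with ABC scores of 0.05 to 0.055, recurrence was 7.65% against 20.5% in Ctr-OPCs and 5.85% against 19.0% in IFN-γ-OPCs, and with scores of 0.08 or more it was 9.68% against 29.5% and 11.8% against 36.9%. These classes of score were chosen after seeing the data. It was not lower right at the power-law limit, where few pairs lay: 11.1% of the 27 just inside and 9.09% of the 33 just outside recurred for Ctr-OPCs. For IFN-γ-OPCs these shares were 17.1% of 41 and 8.0% of 25. Element activity moved with this difference: its median was 2.02 and 2.10 for distance-exceeding connections, against 3.48 and 3.32 for the other connections over 100 kb. The part of activity in the recurrence was not tested.

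**Figure D2:**
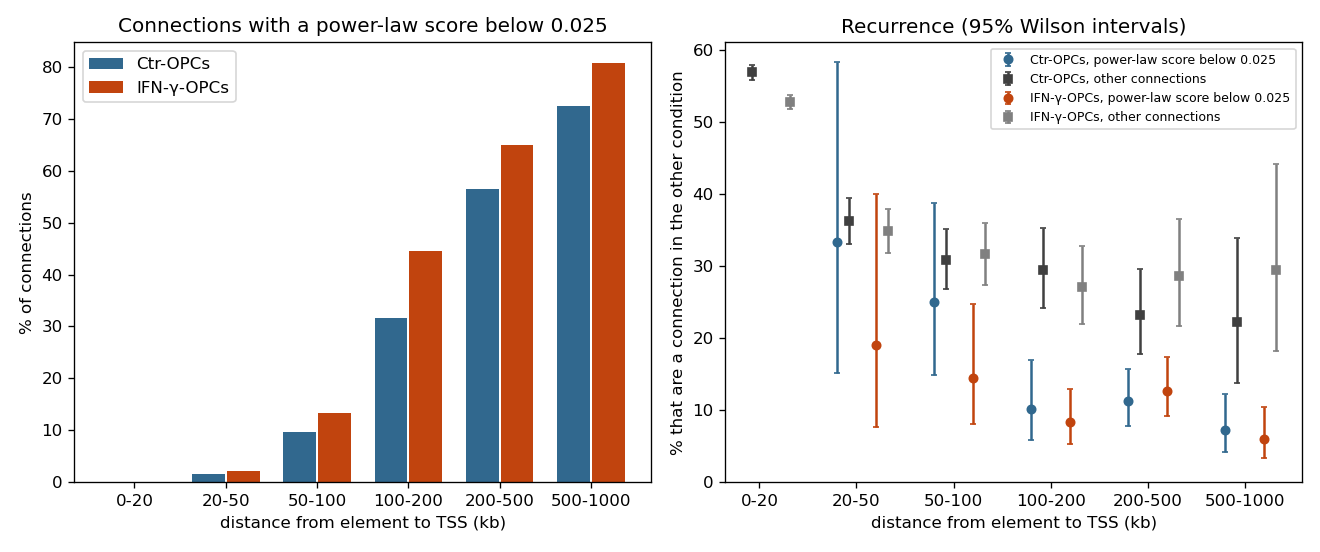
Left, the share of connections that had a power-law score below 0.025 in each distance band (kb), for Ctr-OPCs and IFN-γ-OPCs. Right, the share that was also a connection in the other condition, with 95% Wilson intervals for groups of at least 10 pairs; from 100 kb upwards the circles (power-law score below 0.025) lie between 5.98% and 12.7%, below the squares (other connections) at 22.2% to 29.5%.

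The remaining pairs dropped out at several stages. In Ctr-OPCs, 152 of the 600 (25.3%) were listed in IFN-γ-OPCs with a score below the minimum, 173 (28.8%) had both gene and element listed but not the pair, 62 (10.3%) lacked the element and 144 (24.0%) lacked the gene. In IFN-γ-OPCs these outcomes took 220 of 745 (29.5%), 192 (25.8%), 83 (11.1%) and 174 (23.4%). An unlisted pair whose gene and element were both listed was more common than among the other connections over 100 kb, where it made up 15.4% and 12.5%. A missing element was also more common than there (1.56% and 4.56%), while a missing gene (30.5% and 31.7%) was less common among the distance-exceeding connections, with overlapping intervals for Ctr-OPCs (20.8 to 27.6 against 26.6 to 34.6). The tables list no pair scoring below 0.02, so the score of an unlisted pair whose gene and element were both listed has an upper limit. With the activity and gene sum of the other table, that limit put its contact there, pseudocount included, below that in the choosing table for 170 of 173 Ctr-OPC pairs and 191 of 192 IFN-γ-OPC pairs, and at less than 50% of it for 75.7% and 83.9%. The other connections over 100 kb with this outcome were alike in that respect, with 77.2% and 78.2%. All these pairs scored at least 0.05 in the choosing table and below 0.02 in the other. At equal activity and gene sum such a pair must have a contact below 50%, so these counts follow largely from the choice.

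**Figure D3:**
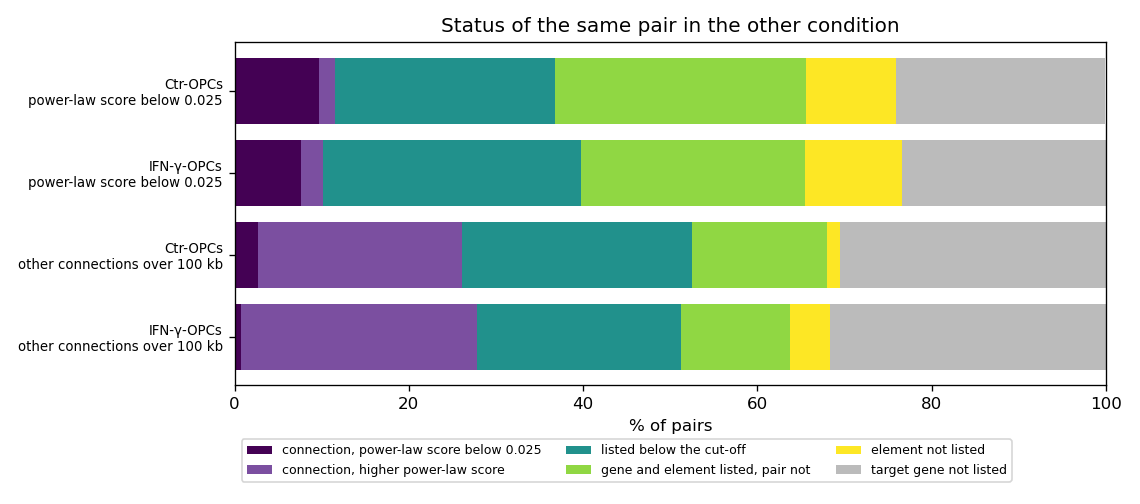
Status of each pair in the table of the other condition, as a share of pairs, for the distance-exceeding connections (upper bars, n = 600 and 745) and for the other connections over 100 kb (lower bars, n = 512 and 439). The dark segments, which are connections in both conditions, sum to 11.5% and 10.2% in the upper bars and to 26.2% and 27.8% in the lower bars.

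Where the same pair was listed in both tables, contact differed more than activity. In these ratios contact includes the pseudocount, with which it enters the score. For 217 matched pairs chosen in Ctr-OPCs, the log2 ratio of the other condition over the choosing condition had a median of -0.41 for contact (95% interval of the median -0.52 to -0.30), -0.12 for element activity and 0.00 for the gene sum. For 293 matched pairs chosen in IFN-γ-OPCs the medians were -0.70 (-0.77 to -0.61), -0.003 and -0.05. Contact was lower in the other condition for 168 of 217 (77.4%) and 259 of 293 (88.4%). The pairs were chosen in part on the contact of the choosing table, so neither median measures an effect of IFN-γ. Over all 454 matched pairs chosen in either condition, contact in IFN-γ-OPCs divided by that in Ctr-OPCs had a median log2 ratio of 0.23 (0.17 to 0.35), but its sign followed the condition that chose the pairs, with -0.41 for Ctr-OPCs and 0.70 for IFN-γ-OPCs, and more of them were chosen in the latter. Before the pseudocount the median was 0.25, over the 429 pairs with a contact above 0 in both tables. Other connections over 100 kb gave medians of -0.18 and -0.55 for the other over the choosing condition.

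A core of 58 pair matches was distance-exceeding in both conditions, with 53 target genes and a median distance of 218 kb. Among them, contact was higher in IFN-γ-OPCs for 31 and the median log2 ratio of contact before the pseudocount was 0.07 (range -0.90 to 1.24), while the median log2 ratio of activity was -0.02. The 22 protein-coding targets were Rtl9, Trib2, Gm5108, Gdnf, Car2, Asxl3, Rbbp7, Nfkbia, Pdk3, Emb, Dnm1l, Rfx6, Kcnq5, Ngdn, Pmp22, Nol7, Ago2, Spry1, Nus1, Uba1, Birc2 and Tigd2. In some of them the measured contact itself lay below the power-law contact. This held for Nus1 in both conditions (0.732 and 0.920 times), for Pdk3 and Tigd2 in Ctr-OPCs (0.691 times each) and for Spry1 in IFN-γ-OPCs (0.998 times).

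Trib2, which encodes a pseudokinase, had the largest departure from the power-law score among protein-coding targets of Ctr-OPCs. Its element lay 716 kb away in an intergenic region, with no protein-coding TSS between. The contact was 0.0140 in Ctr-OPCs against 0.0126 in IFN-γ-OPCs, 8.52 and 7.65 times the power-law contact. The ABC score was 0.0738 and 0.0943 against power-law scores of 0.00339 and 0.00567. In IFN-γ-OPCs this element also reached Gm4804, Gm5432 and Gm18114, so that 1 element gave 4 of the pairs.

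Gdnf, the gene of glial cell line-derived neurotrophic factor, was paired with an intergenic element at 350 kb (chr15:7460108-7461839 in Ctr-OPCs and chr15:7460106-7460605 in IFN-γ-OPCs). Its contact was 0.0243 in Ctr-OPCs against 0.0483 in IFN-γ-OPCs, 7.92 and 15.8 times the power-law contact. The element was wider and more active in Ctr-OPCs (activity 1.51 against 0.665), and the ABC scores were 0.0756 and 0.0626. Contact was thus higher and activity lower in IFN-γ-OPCs, with scores above the minimum in both conditions. The same Ctr-OPC element was also paired with Wdr70, at 638 kb and 9.78 times the power-law contact, a pair not listed in IFN-γ-OPCs, where its contact, pseudocount included, had an upper limit of 0.0158 against a contact of 0.0178 before the pseudocount in Ctr-OPCs. Upper limits of contact below likewise include it.

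Rtl9, a retrotransposon-derived gene on the X chromosome, had the highest ABC score among protein-coding targets in both conditions. Its element at 344 kb (chrX:143443137-143443636 in Ctr-OPCs) scored 0.136 in Ctr-OPCs against 0.175 in IFN-γ-OPCs. The contact was 0.0217 and 0.0228, and the activity 0.806 and 1.38. A neighbouring element in the same 5 kb bin, with the same contact value, gave a second pair in each condition, scoring 0.126 and 0.0561.

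Nfkbia, which encodes the NF-κB inhibitor IκBα, was paired at 93.9 kb with an element at a coding exon and UTR of Psma6 (chr12:55398544-55399043 in Ctr-OPCs). Its contact was 0.0114 in Ctr-OPCs against 0.0169 in IFN-γ-OPCs, only 1.18 and 1.75 times the power-law contact, and its ABC score was 0.0596 and 0.0679. Car2, a carbonic anhydrase enriched in oligodendrocytes, was paired with an intergenic element at 312 kb with contacts of 0.0106 and 0.0157 and ABC scores of 0.0625 and 0.0619. Rbbp7, a histone-binding chromatin subunit on the X chromosome, had contacts of 0.00819 and 0.0135 at 239 kb and ABC scores of 0.0599 and 0.0939. Asxl3, a Polycomb-associated gene, had contacts of 0.0088 and 0.00789 at 641 kb, and Gm5108 had 0.0177 and 0.0127 at 189 kb. Among these 8 genes, contact was higher in IFN-γ-OPCs for 5 and lower for Trib2, Asxl3 and Gm5108.

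**Figure D4:**
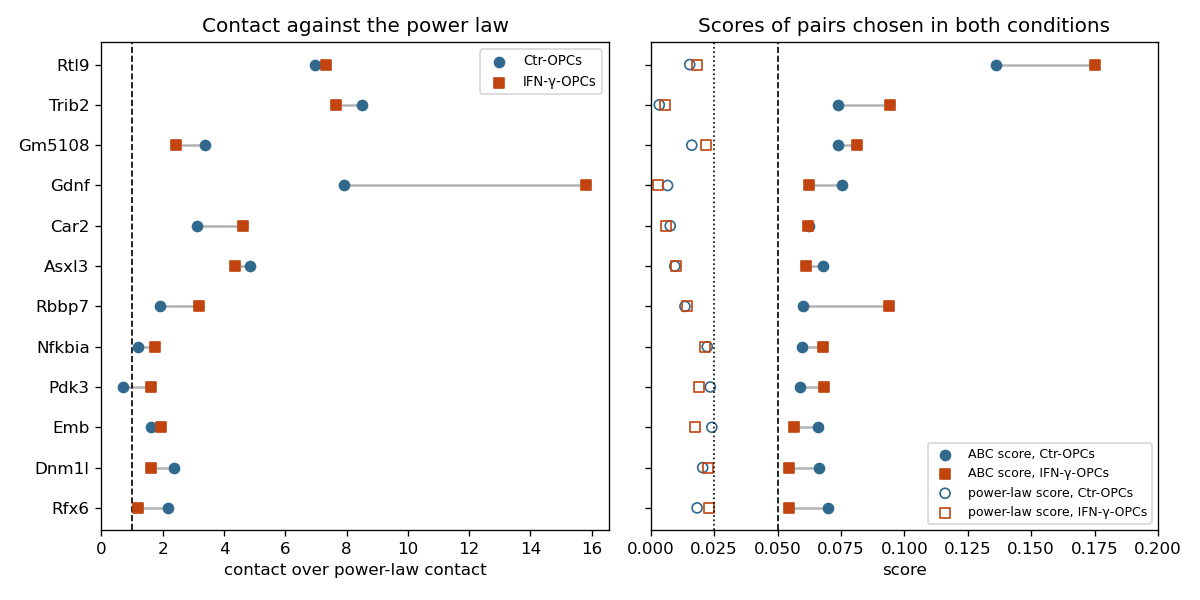
The 12 protein-coding targets with the highest lower-of-both ABC scores among pairs that were distance-exceeding in both conditions. Left, measured contact divided by power-law contact, dashed at 1; right, ABC scores (filled, minimum 0.05 dashed) and power-law scores (open, limit 0.025 dotted), with Ctr-OPCs as circles and IFN-γ-OPCs as squares. Gdnf shows the widest absolute difference in this ratio, from 7.92 to 15.8 times the power law, while Pdk3, from 0.691 to 1.63, differs more as a fold; Rtl9 has the highest scores.

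Among noncoding targets, the pair of Mir9-2 with an intergenic element of chromosome 13 was singled out after its values were seen. Mir9-2 is 1 of the genes of the neural microRNA miR-9, whose mature forms (RefSeq, GRCm38.p6, seed at bases 2 to 8 in capitals) are:
mmu-miR-9-5p (chr13:83738821-83738843): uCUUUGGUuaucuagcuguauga
mmu-miR-9-3p (chr13:83738858-83738879): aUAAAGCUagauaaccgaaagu
The element (chr13:84347971-84348470 in Ctr-OPCs, chr13:84347991-84348490 in IFN-γ-OPCs) lay 609 kb from Mir9-2. Contact was 0.0144 in Ctr-OPCs against 0.0171 in IFN-γ-OPCs, 7.64 and 9.06 times the power-law contact, and the ABC scores were 0.0707 and 0.0713 against power-law scores of 0.00349 and 0.00333. Values for the Mir9-2 pair thus lay close together in the 2 tables. With 7 target genes in Ctr-OPCs the element had the most of any in the set, and with 5 in IFN-γ-OPCs it shared that place with an element of chromosome 19. Its activity was 6.25 and 5.88. In Ctr-OPCs the others were Gm48067, C130071C03Rik (the long noncoding RNA whose locus holds Mir9-2), Gm26803, Gm33366, Gm4241 and Gm17750, at 283 to 661 kb. Of the 7 pairs of Ctr-OPCs, only 3 were also a connection in IFN-γ-OPCs. The C130071C03Rik pair scored 0.0520 in Ctr-OPCs against 0.0403 in IFN-γ-OPCs, and the Gm4241 pair 0.0569 against 0.0482. In IFN-γ-OPCs the targets besides Mir9-2 were Gm33366, Gm8447, Gm17750 and Ccnh, at 283 to 841 kb.

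Several distance-exceeding connections thus shared 1 element. The 600 pairs of Ctr-OPCs came from 467 elements and 549 target genes and the 745 of IFN-γ-OPCs from 585 elements and 678 genes, and 103 and 120 elements had at least 2 targets. Among the other connections, 2053 of 7496 and 2156 of 8002 elements did, with up to 26 targets for 1 element. Sharing of elements was thus not particular to the distance-exceeding connections. Contact is assigned per pair of 5 kb bins, of which there were 537 and 659, so targets that start close together carry 1 measurement. An intergenic element of chromosome 14 was paired in Ctr-OPCs with 5 T cell receptor joining segments (Traj56, Traj57, Traj59, Traj60 and Traj61), all with a contact of 0.0275 and none of them a connection in IFN-γ-OPCs. On chromosome 19 an element (chr19:5803377-5803876) was paired in IFN-γ-OPCs with Neat1, a long noncoding RNA that builds paraspeckles, and with 4 genes beside it, at 40.8 to 42.0 kb. The Neat1 pair was present in both conditions, with contacts of 0.0336 in Ctr-OPCs against 0.0316 in IFN-γ-OPCs. The genes with most pairs over both conditions were n-R5s169 with 6, through elements of Cdk6, and Gm4241 with 5, followed with 4 each by Gm17750, Gm22268 and Gm23128, taken in order of name from a tie that also held Rgs1 and Rtl9. The symbol Gm23128 stands for 2 gene identifiers at 1 TSS, so its pairs were counted once for each identifier.

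By ABC score, the leading protein-coding targets besides Rtl9 were Gabra5 (0.123 at 889 kb), Ccnh (0.105 at 740 kb), Calhm4 (0.0971 at 227 kb) and Tsc22d3 (0.0894 at 194 kb) in Ctr-OPCs. In IFN-γ-OPCs they were Sytl4 (0.127 at 315 kb), Pclo (0.124 at 319 kb), Steap1 (0.120 at 241 kb) and Vgll3 (0.120 at 941 kb). Apart from Rtl9, none of these pairs was listed in the other condition, while 36.8% of all distance-exceeding connections were for Ctr-OPCs and 39.7% for IFN-γ-OPCs. Gabra5 (a GABA receptor subunit), Calhm4 and Sytl4 were not listed there as target genes. For Ccnh, a cyclin of transcription initiation, contact was 0.00849 in Ctr-OPCs and had an upper limit of 0.00151 in IFN-γ-OPCs, with element activities of 4.46 and 4.93. Ccnh did have a distance-exceeding connection in IFN-γ-OPCs, but with another element, the one paired with Mir9-2. For Pclo, a presynaptic scaffold, contact was 0.0122 in IFN-γ-OPCs against at most 0.00265 in Ctr-OPCs, with activities of 1.91 and 1.58. For Steap1, a metalloreductase, it was 0.0218 and at most 0.00295, with activities of 1.84 and 2.07. For Vgll3, a transcriptional cofactor, it was 0.0057 and at most 0.00172, with activities of 3.63 and 2.29. Contact therefore differed more than activity in these 4 pairs, which had been chosen on a score that contains it. For Tsc22d3, the glucocorticoid-induced leucine zipper, contact was 0.0219 in Ctr-OPCs against at most 0.00719 in IFN-γ-OPCs.

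By the ratio of the scores, the leading protein-coding targets in IFN-γ-OPCs were Manea, Gdnf, Sucnr1, Htatsf1 and Gm14698. The ratio was 24.2 for Manea, a Golgi mannosidase at 754 kb whose contact of 0.0183 was 11.6 times the power-law contact and at most 0.00453 in Ctr-OPCs. It was 20.0 for Sucnr1, the succinate receptor at 736 kb, with a contact 16.3 times the power-law contact and an element not listed in Ctr-OPCs. Htatsf1 and Gm14698, both on the X chromosome, had ratios of 18.8 at 626 kb and 17.4 at 845 kb. In Ctr-OPCs the leading targets after Trib2 (21.8) were Sh3kbp1 (18.1 at 337 kb), Cpa3 (15.4 at 997 kb), Wdr70 (14.9) and Bclaf3 (14.7 at 303 kb). Sh3kbp1 and Bclaf3 were each paired with an element in an intron of Sh3kbp1 on the X chromosome. The longest pairs below the limit of 1 Mb belonged to Cpa3, Gm23726 (990 kb) and Gm18533 (984 kb) in Ctr-OPCs, and to Mcf2, Gm42774 (996 kb) and Gm14577 (987 kb) in IFN-γ-OPCs. None of these 6 pairs was listed in the other table.

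The 20 OPC lineage genes drew 32 connections in Ctr-OPCs, of which 0 were distance-exceeding, and 27 in IFN-γ-OPCs, of which 2 were, beside 5.27% and 6.14% of all connections. These counts do not set the list apart from all genes. Both pairs belonged to Olig2, a transcription factor that specifies the lineage. The Olig2 elements lay in introns of Gm15966 at 79.0 kb (chr16:91304200-91304699) and 80.3 kb (chr16:91305546-91306045). Their contacts in IFN-γ-OPCs were 0.0236 and 0.0226, 2.11 and 2.05 times the power-law contact, against 0.0182 and 0.0190 in Ctr-OPCs. The ABC score of the nearer Olig2 element was 0.0594 in IFN-γ-OPCs against 0.0451 in Ctr-OPCs. For the farther Olig2 element, which the Ctr-OPC table lists with a wider span and an activity of 11.3 against 6.27, the score was 0.0670 in IFN-γ-OPCs against 0.0957 in Ctr-OPCs. It thus was a connection in both conditions, but its power-law score of 0.03 lay above the limit in Ctr-OPCs.

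From the list of genes of myelin and maturing oligodendrocytes, Ermn, the gene of the cytoskeletal protein ermin, was paired in Ctr-OPCs with an element in an intron of Acvr1 at 432 kb (chr2:58484115-58485109). The contact was 0.0221, 8.67 times the power-law contact, the activity 0.921 and the ABC score 0.0675, and the element was not listed in IFN-γ-OPCs. Among 28 neural transcription factors, with 22 connections in Ctr-OPCs against 27 in IFN-γ-OPCs, Zeb1 had a pair at 432 kb in Ctr-OPCs that scored 0.0690 there and 0.0479 in IFN-γ-OPCs, with contacts of 0.00866 and 0.0050. Among 6 neuronal markers, with 1 connection against 2, Gad1 had a pair at 425 kb in IFN-γ-OPCs that scored 0.0533 there and 0.0368 in Ctr-OPCs, with contacts of 0.0099 and 0.00505. Astrocyte markers drew 2 connections in each table and microglia markers 2 and 0, and none was distance-exceeding. With so few connections these lists cannot be compared with all genes.

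No gene of the IFN-γ response list had a distance-exceeding connection. Of its 57 genes, 41 were listed in Ctr-OPCs against 49 in IFN-γ-OPCs, and 11 and 28 had connections, numbering 13 and 44. All of these connections had power-law scores of 0.025 or more, beside the 5.27% and 6.14% of all connections that did not. A count of 0 among so few connections does not set the list apart from all genes. Outside the list, Samd9l, an interferon-inducible gene named here after its values were seen, had a pair at 58.4 kb in IFN-γ-OPCs, with a contact of 0.0410 that was 2.82 times the power-law contact and an ABC score of 0.106. Its element was not listed in Ctr-OPCs.

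The targets included fewer protein-coding genes than those of the other, mostly nearby connections. Protein-coding genes made up 29.8% (95% Wilson interval 26.3 to 33.6) in Ctr-OPCs against 38% (34.6 to 41.5) in IFN-γ-OPCs, while they were the targets of 44.4% and 43.8% of the other connections. Distance went with this: among other connections over 100 kb the shares were 28.5% (24.8 to 32.6) and 30.8% (26.6 to 35.2). Among pairs over 100 kb the intervals thus overlapped in Ctr-OPCs, where distance-exceeding connections had 29.9% (26.2 to 33.9), and just overlapped in IFN-γ-OPCs, where they had 37.0% (33.4 to 40.8). Processed pseudogenes, which are copies of spliced transcripts, made up 22.3% and 19.3%, against 11.5% and 11.6% of all other and 26.4% and 25.3% of the other connections over 100 kb. Contacts at near-identical copies can be assigned to either copy, and the effect of this was not tested. The promoters of the targets had a median activity quantile of 0.575 and 0.620, against 0.681 and 0.684 for targets of other connections and 0.535 and 0.551 for those over 100 kb.

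**Figure D5:**
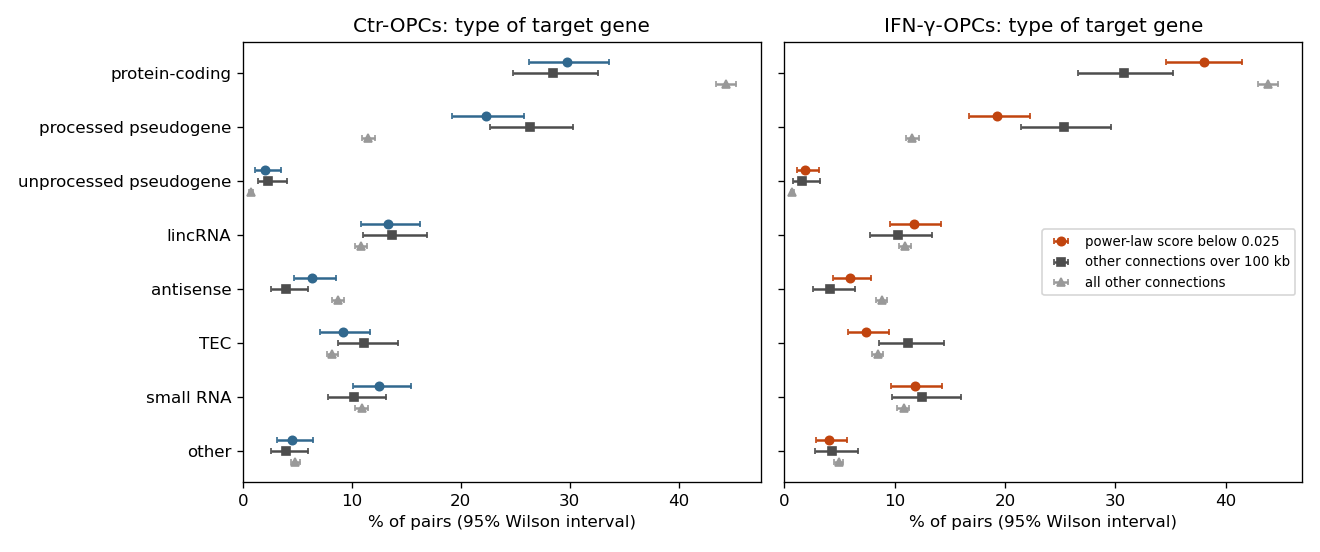
Share of pairs by the annotated type of the target gene, with 95% Wilson intervals, for distance-exceeding connections (circles), other connections over 100 kb (squares) and all other connections (triangles). Protein-coding targets take 29.8% and 38% of the distance-exceeding connections, near the squares in Ctr-OPCs (28.5%) and above them in IFN-γ-OPCs (30.8%); TEC are transcripts still to be experimentally verified.

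The X chromosome held 11.5% of the distance-exceeding connections in Ctr-OPCs against 10.7% in IFN-γ-OPCs, while it held 3.69% and 3.42% of the other connections. Among other connections over 100 kb it held 10.5% (8.17 to 13.5) and 8.88% (6.57 to 11.9), intervals that overlapped with those of distance-exceeding connections over 100 kb at 11.8% (9.31 to 14.8) and 11.3% (9.06 to 13.9). The element was the highest-scoring one of its gene in 58.5% and 60.7% of the pairs, against 77.2% and 77.4% of the other connections. Among pairs over 100 kb these shares were 59.4% and 62.5% against 71.3% and 71.1%. The pair was the only connection of its gene in 48% and 49.5%, against 58.7% and 59.0% of the other connections. Among pairs over 100 kb those shares were 48.6% and 50.9% against 55.1% and 49.4%. No TSS of another protein-coding gene lay between element and target in 32.5% and 37.0% of the pairs, against 85.6% and 87.0% of the other connections and 43.2% and 48.7% of those over 100 kb. For distance-exceeding connections over 100 kb the shares were 30.8% and 34.0%. These also spanned more, with median distances of 355.5 and 307.8 kb against 200.7 and 181.8 kb for the other connections over 100 kb. A total of 105 genes had a distance-exceeding connection in both conditions, with the same or another element, which is 19.1% of the 549 targets in Ctr-OPCs and 15.5% of the 678 in IFN-γ-OPCs. This share of genes was not computed for the other connections, so it cannot be called low or high.

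In windows of 500 bases, motif letters occurred in the elements at shares within a few percentage points of those over all listed elements. About the centre of the element, the CTCF core was found in 31 of 467 elements in Ctr-OPCs (6.64%, 4.72 to 9.27) and 34 of 585 in IFN-γ-OPCs (5.81%, 4.19 to 8.01), against 7.47% and 7.53% of all listed elements and 3.57% (2.01 to 6.28) and 2.47% (1.2 to 5.02) of the elements of other connections over 100 kb. In windows of 2000 bases the shares were 17.6% (14.4 to 21.3) and 16.8% (13.9 to 20.0), against 12% (8.84 to 16.1) and 7.42% (4.90 to 11.1) for other connections over 100 kb and 18.2% and 18.0% of all listed elements. For the CTCF core, the intervals of these long sets separated only in IFN-γ-OPCs and only in the wide window. In 500 bases, GAS letters were found in 17.6% and 17.1% (13.9% and 15.2% of all listed elements), AP-1 letters in 16.1% and 15.0% (14.5% and 16.2%), and IRF letters in 6.00% and 9.91% (5.41% and 8.60%). For GAS letters in Ctr-OPCs the interval (14.4 to 21.3) lay just above that of all listed elements (13.5 to 14.3), and in IFN-γ-OPCs the intervals overlapped. Elements of other connections over 100 kb held GAS letters in 15.9% (12.2 to 20.4) for Ctr-OPCs and 20.5% (16.2 to 25.6) for IFN-γ-OPCs, intervals that overlapped with those of the distance-exceeding connections. In windows of 2000 bases, IRF letters were found in 28.1% (24.2 to 32.3) for Ctr-OPCs, above the 23.1% (22.7 to 23.6) of all listed elements, and in 33.7% (30 to 37.6) for IFN-γ-OPCs, above 26.9% (26.4 to 27.4). Wide windows held GAS letters in 49% (44.5 to 53.6) for Ctr-OPCs, which overlapped with 45.9% (45.3 to 46.4), and in 52.5% (48.4 to 56.5) for IFN-γ-OPCs, above 47.5% (47.0 to 48). For AP-1 letters, with 43.7% and 46.0% against 44.4% and 45.8%, the intervals overlapped in both. Elements of other connections over 100 kb held IRF letters in 33.4% (28.4 to 38.9) and 35.7% (30.3 to 41.4) of wide windows and GAS letters in 49% (43.5 to 54.6) and 57.2% (51.4 to 62.9), so these intervals overlapped with those of the distance-exceeding connections. The median GC content was 48% and 48.4%, against 50.6% and 49.8% over all listed elements and 47.8% and 48% for other connections over 100 kb.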

How the data were processed

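Prediction tables of the ABC model, 1 per condition, were analysed, each made by the authors from 3 pooled H3K27ac HiChIP libraries. Per the labels and methods, reads were processed with HiC-Pro on mm10, and HiChIP contact was joined to alignments of ATAC-seq and of H3K27ac CUT&RUN under default parameters. The deposited element activity is a signal from coverage, the deposited contact, ABC and power-law values are score columns of the model (each score being a share of the sum over all elements of a gene), and the deposited promoter activity quantile is a fraction. The deposited distance is in bases. Levels of contact are given before the pseudocount that the authors' ABC score adds; upper limits for unlisted pairs and, unless stated, log2 ratios include it. The tables hold pairs scoring 0.02 or more. The depth per library is not given in the sources used here.

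Pairs were matched between tables by target gene and an overlap of at least 1 bp; for ratios, the mutual best overlap was used. Of 32049 target genes, 31937 were named through GENCODE M21. Python 3.11.15, pandas 2.3.3, scipy 1.17.1, pysam 0.24.0 and samtools 1.23.1 were used. Shares carry 95% Wilson intervals and medians binomial intervals; no test was possible with 1 table per condition. Matching was tested on simulated data. Named genes were the listed genes with a member, the 5 highest by ABC score and by ratio of scores (protein-coding), the 3 longest pairs, the 5 genes with most pairs, and the 8 protein-coding genes with the highest lower score in both conditions; Mir9-2, C130071C03Rik, Neat1, Samd9l, the other targets of shared elements and the remaining genes chosen in both conditions were named after values were seen. Some items that this rule names are not reported here. Members, gene lists and this rule were chosen with earlier results of these data known.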

Additional observations from a re-analysis of the deposited data

How the results depend on the processing

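Of 56 alternatives to the values above, 31 stayed within 1.5 times a count or within the counting interval. The number of distance-exceeding connections moved from 600 and 745 (Ctr-OPCs and IFN-γ-OPCs) to 260 and 346 with an ABC minimum of 0.06, to 16 and 23 with 0.1, and to 179 and 283 with protein-coding targets only; their share of connections moved to 7.29% and 8.66% when a ratio of scores of at least 2 replaced the power-law limit. Recurrence moved to 15.1% and 13.3% among target genes listed in both tables, to 36.8% and 39.7% when any listed pair counted, and to 15.6% in Ctr-OPCs with protein-coding targets only (11.7% in IFN-γ-OPCs; chosen after seeing the data, as were leaving out the X chromosome, 11.5% and 10.1%, the classes of score, and the limit to pairs over 100 kb). The gap to other connections was -41.1 and -39.3 percentage points, -20.7 and -22.1 with other connections at 20 kb to 1 Mb, and -16.5 and -18.4 with both sets over 100 kb. Median distance was 366 and 321 kb at a power-law limit of 0.02, and 282 and 204 kb at 0.03. The CTCF share was 17.6% and 16.8% in the wider window, which holds more letters. The log2 ratio of contact reversed to -0.41 for pairs chosen in Ctr-OPCs and rose to 0.70 for those chosen in IFN-γ-OPCs, by the construction of the choice. No paired analysis was possible because the 3 libraries of a condition share 1 table, so that no library could be left out either. Elsewhere the cause of a shift was not tested.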

Other observations

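Beyond the limit of 1 Mb, 211 further pairs in each table met both score limits, at a median distance of 1900 kb for Ctr-OPCs against 1870 kb for IFN-γ-OPCs. Their contact was 7.40 and 7.81 times the power-law contact (medians), against 2.20 and 2.21 within the limit, and the median ABC score was 0.0618 in both.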
